A study of Mus musculus with 18 samples.

Results

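The loss of Cbl-b was examined in peripheral CD4 T cells that carry the W131A form of ZAP-70. The comparison set 3 libraries of Cbl-b-/-W131AOTII cells against 3 libraries of W131AOTII cells, 6 of the 18 RNA sequencing libraries in the series, and these 6 were chosen by genotype and tissue alone. All mice were C57BL/6 and every mouse had the OT-II transgene, whose T cell receptor sees an ovalbumin peptide. W131A is a substitution in the tyrosine kinase ZAP-70 that weakens its autoinhibited shape, and the labels present W131AOTII mice as a model in which anergy is genetically encoded. Both groups carried W131A, so the genotype that separated them was Cbl-b-/-. Cells came from spleens and lymph nodes and were sorted as CD44low, CD62L+, CD25neg and Va2+, the surface profile of naive OT-II cells. The labels name 12 W131AOTII mice at 4 mice per group and 6 Cbl-b-/-W131AOTII mice at 2 mice per group, and do not say which mice went into which library. The p-values therefore measure the spread between libraries, and colony, litter or sort day cannot be told apart from the genotype. The sources used here give no age for the mice. The series was designed to find the pathways through which Cbl-b acts in anergic cells. The 6 libraries are called WO1 to WO3 (W131AOTII) and CWO1 to CWO3 (Cbl-b-/-W131AOTII) by replicate number. Peripheral OTII and Cbl-b-/- OTII cells, 3 libraries each and without W131A, serve below as a second Cbl-b comparison that shares no library with the first.

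Cbl-b is a RING-type E3 ubiquitin ligase that is induced in anergic T cells and restrains signals from the T cell receptor and CD28. ZAP-70 binds phosphorylated CD3 zeta chains and carries the receptor signal forward. Type I interferon acts through the receptor chains IFNAR1 and IFNAR2 and the factor ISGF3, which includes IRF9 and binds interferon-stimulated response elements in the promoters of antiviral genes. Interferon gamma acts at GAS elements and is a strong inducer of the immunity-related GTPases (IRG) and guanylate-binding proteins (GBP). Naive T cells hold a tonic level of interferon-induced transcripts without infection.

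Cblb transcripts were lower, but not absent, in the libraries labelled Cbl-b-/-. In CPM (counts scaled to library size with TMM factors), replicates 1 to 3 were at 177, 154 and 146 in W131AOTII cells and at 111, 87.2 and 82.8 in Cbl-b-/-W131AOTII cells. No library of one group reached the range of the other. The log2 fold change, always Cbl-b-/-W131AOTII minus W131AOTII, was -0.76 ± 0.17 (SE, n = 3 per group, adjusted p = 0.0143, edgeR's quasi-likelihood test with Benjamini-Hochberg adjustment over all genes tested). The call was lost without CWO2 (adjusted p = 0.055) and without CWO3 (adjusted p = 0.055). The sources used here do not say which exons the allele lacks, and counts per gene cannot show a missing exon, so the remaining reads check the label only in part. Zap70 was at 300, 339 and 361 CPM in W131AOTII cells and at 183, 223 and 216 CPM in Cbl-b-/-W131AOTII cells. These ranges did not overlap, and the fold change was -0.68 ± 0.21 (adjusted p = 0.0431), a call that was lost without any 1 of 5 libraries, all but WO1, at adjusted p from 0.0658 to 0.154. Cbl, the closest relative of Cblb, was at -0.19 ± 0.13 (adjusted p = 0.367).

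Of 15204 genes tested, 1407 passed an adjusted p of 0.05 (9.25%), 483 higher (3.18%) and 924 lower (6.08%) in Cbl-b-/-W131AOTII cells. With library size alone as scaling the split was 960 higher and 531 lower. Libraries of the 2 groups did not overlap for 39.8% of all genes, 19.6% higher and 20.3% lower. The number of calls rested on single libraries. It was 1411, 262 and 413 when WO1, WO2 or WO3 was left out, and 124, 550 and 689 when CWO1, CWO2 or CWO3 was. Only 109 genes (0.717%), 25 higher (0.164%) and 84 lower (0.552%), passed in the fit with all libraries, in each of the 6 fits that left 1 library out and in a fit with offsets for GC content and length. These 109 are called stable below. Total counts of the 6 libraries lay between 25634489 and 36218772. WO2 stood apart on the first principal component, which held 62.3% of the variance, at -48.48 against -4.99 and -8.83 for its group and 18.29 to 22.26 for the Cbl-b-/-W131AOTII libraries. Genes that fell had a median GC content of 53.8% and genes that rose one of 43.3%, against 49% over all genes tested, and the part of GC content in the calls was tested only through these offsets. In the second Cbl-b comparison, in OTII cells, 1249 genes passed (8.21%), 794 higher (5.22%) and 455 lower (2.99%). Without OTII replicate 1, 2 or 3 it had 720, 339 and 150 calls. Without Cbl-b-/- OTII replicate 1, 2 or 3 it had 860, 427 and 1586. With the GC and length offsets it had 669. List counts in OTII cells, given below, come from the fit with all libraries and without offsets, and were not followed in other fits.

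**Figure D1:**
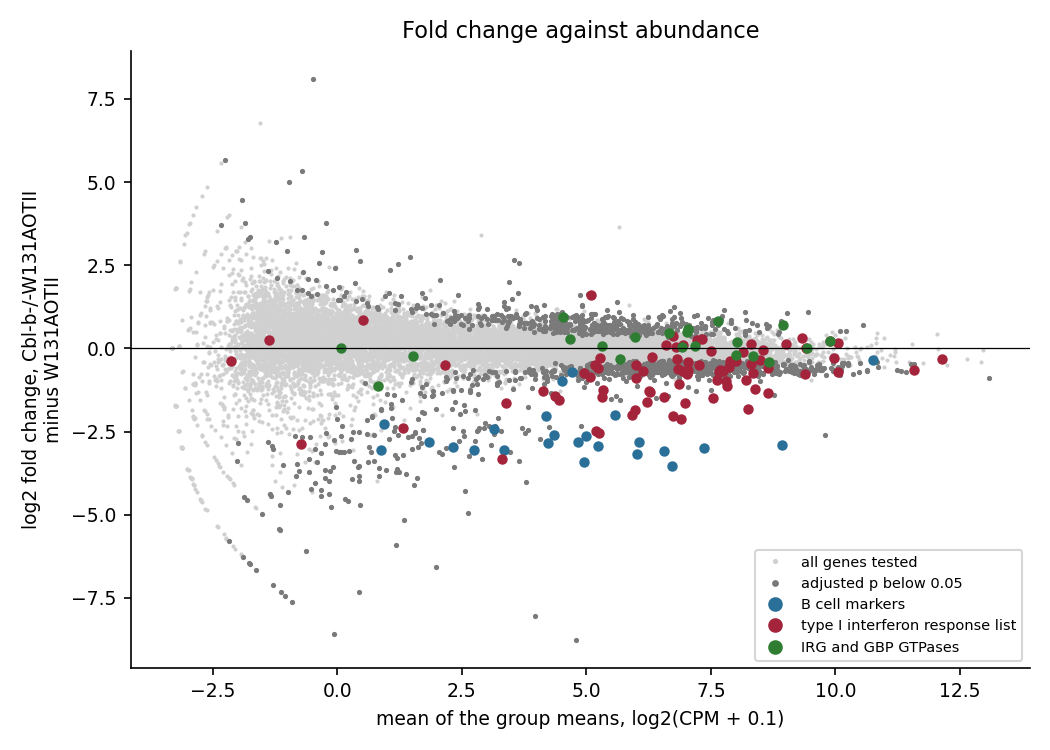
Log2 fold change (Cbl-b-/-W131AOTII minus W131AOTII, vertical axis) against the mean abundance of the 2 groups on a log2(CPM + 0.1) scale, 1 point per gene tested. Genes past the adjusted p of 0.05 are dark grey. Most interferon-list points (red) lie below 0 at middle to high abundance, IRG and GBP points (green) lie around 0, and most B cell marker points (blue) lie under -2.

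Interferon-induced antiviral genes were lower in Cbl-b-/-W131AOTII cells, in fits with and without each single library. A list of 82 type I interferon response genes had 80 measured members, of which 44 fell and 1 rose, against 6.08% and 3.18% of all genes. The median log2 fold change of the list was -0.66, against 0.03 over all genes tested. Over the 80 measured members, the libraries of the 2 groups did not overlap for 51 with lower values and 5 with higher values. Of all genes, 20.3% and 19.6% did not overlap in these directions. The lack of overlap in 42 of the 44 genes adds no support, because these genes were called from the same libraries. Of the 84 stable lower genes, 29 were on this list, and 1 of the 25 stable higher genes, the predicted gene Gm4951. The list had 30 to 38 lower members in each fit that left 1 of the 6 libraries out (38 without WO2, where 1.35% of all genes were lower), 50 with the GC and length offsets, and 37 with library size alone as scaling, which moved the median of all genes from 0.03 to 0.18 and that of the list to -0.51. The list was drawn up with earlier results of these data known and is not independent evidence of its own direction. Measures of RNA composition also separated the groups. Nuclear-retained and small structural RNAs summed to 354 to 595 CPM in W131AOTII libraries and 734 to 849 CPM in Cbl-b-/-W131AOTII libraries, and mitochondrial reads were 0.517% to 0.649% against 0.714% to 0.968%. The Spearman correlation, across genes, of a library's deviations with GC content was 0.078 to 0.333 against -0.436 to -0.116. The part of RNA composition in the result was tested only through the GC and length offsets. In bulk RNA, fewer cells that express these genes and less RNA per cell cannot be told apart.

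The promoters of several of the genes that fell carry the interferon-stimulated response element, and they are shown because this element is the feature the genes are best known to share. The motif searched was GAAANNGAAA on either strand, where its reverse complement reads TTTCNNTTTC, in the 250 bases before each RefSeq start (build GRCm38.p6, the build of the count table). Of the 44 genes that fell, 33 had an entry by symbol, and 14 of the 33 held a match (42.4%), against 341 of 10263 genes tested with an entry (3.32%). It was found in 8 of the 30 list members with an entry that did not fall (26.7%), in 24 of 667 other genes that fell (3.6%) and in 6 of 338 genes that rose (1.78%). The 5 genes with the smallest adjusted p among those with a match in the last 150 bases are printed, in the direction of transcription and up to the base before the start, with matches in capitals. They lie at chr12:26456453-26456602 (minus strand) for Rsad2, chr19:34583379-34583528 (plus strand) for Ifit3, chr19:34640739-34640888 (plus strand) for Ifit1, chr5:120777660-120777809 (minus strand) for Oas3 and chr4:156200819-156200968 (minus strand) for Isg15.
Rsad2: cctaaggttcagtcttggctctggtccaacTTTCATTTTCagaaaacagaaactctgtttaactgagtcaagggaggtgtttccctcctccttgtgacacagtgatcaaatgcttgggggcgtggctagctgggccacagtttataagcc
Ifit3: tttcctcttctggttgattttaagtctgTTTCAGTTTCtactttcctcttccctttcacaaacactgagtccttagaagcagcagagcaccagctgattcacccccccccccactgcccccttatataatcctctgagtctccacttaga
Ifit1: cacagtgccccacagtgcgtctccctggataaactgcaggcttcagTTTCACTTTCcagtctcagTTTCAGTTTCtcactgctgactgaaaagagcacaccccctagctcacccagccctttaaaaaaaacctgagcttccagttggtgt
Oas3: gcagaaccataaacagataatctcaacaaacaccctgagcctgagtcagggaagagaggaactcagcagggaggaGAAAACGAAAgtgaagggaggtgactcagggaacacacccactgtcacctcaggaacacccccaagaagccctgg
Isg15: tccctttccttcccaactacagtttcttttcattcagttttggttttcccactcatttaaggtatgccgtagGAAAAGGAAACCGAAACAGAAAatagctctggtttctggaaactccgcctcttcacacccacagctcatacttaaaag
The matches of Isg15 overlap one another and are counted as 3, Ifit1 holds 2, and the others hold 1 each. A match describes the letters of the promoter and does not show that a factor was bound.

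Rsad2, which encodes the antiviral enzyme viperin, shared the smallest adjusted p of all genes with Ifit3b and Synj2. Its 3 W131AOTII libraries were at 80.4, 43.2 and 69.9 CPM, and its 3 Cbl-b-/-W131AOTII libraries at 11.5, 11.7 and 10.4 CPM. All Cbl-b-/-W131AOTII values lay far under the lowest W131AOTII value and close to each other, with a fold change of -2.53 ± 0.21 (log2, adjusted p = 1.9e-06). Cmpk2, the neighbour of Rsad2 on chromosome 12 and a nucleotide kinase that supplies the substrate of viperin, went from 123, 85.1 and 127 CPM to 42.5, 31.6 and 35.2 CPM (-1.62 ± 0.15, adjusted p = 4.57e-06). Again the groups did not overlap. WO2, the library that stood apart, was the lowest of its group for both genes, and without it the median of the interferon list was -0.77.

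The IFIT proteins bind viral RNA ends and block its translation. Ifit1 was at 516, 353 and 550 CPM in W131AOTII cells and at 130.6, 122 and 153 CPM in Cbl-b-/-W131AOTII cells (log2 fold change -1.81 ± 0.18, adjusted p = 9.98e-06). Ifit3 was at 209, 124 and 187 CPM against 45.8, 32.5 and 47.6 CPM (-2.04 ± 0.20, adjusted p = 9.98e-06). For both genes every W131AOTII library exceeded every Cbl-b-/-W131AOTII library, and WO2 was the lowest of its group. Ifit3b, a near-identical copy of Ifit3, fell by 2.48 on the log2 scale, and how reads were shared between the copies is uncertain. Ifit2, which belongs to the same cluster, was at -0.40 and did not pass.

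The 2'-5' oligoadenylate synthetases make the second messenger that activates RNase L. Oas3 was at 214, 129 and 241 CPM in W131AOTII cells and at 46.3, 41.9 and 45.7 CPM without Cbl-b (log2 fold change -2.12 ± 0.22, adjusted p = 1.52e-05). Oasl1, which has no synthetase activity and limits Irf7 translation, was at 107, 75.9 and 114 CPM against 25, 26.8 and 31.1 CPM (-1.84 ± 0.18, adjusted p = 9.98e-06). The groups were separate for both. Oasl2, Oas1a and Oas2 also fell, with log2 fold changes of -1.64, -1.25 and -1.28, and Oas2 was not stable. Oas1c and Oas1b were at -0.16 and 0.04 and did not pass. Of the cytosolic RNA sensors, Dhx58 (LGP2) went from 147, 112 and 154 CPM to 48.5, 49.6 and 53.2 CPM (-1.45 ± 0.15, adjusted p = 1.45e-05), whereas Ifih1 (MDA5) was at -0.60 and did not pass.

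Isg15 encodes a ubiquitin-like modifier, and Usp18 its deconjugating protease, which also restrains the interferon receptor. Isg15 was at 99.3, 79.9 and 111 CPM in W131AOTII cells and at 23.4, 23.5 and 25.5 CPM in Cbl-b-/-W131AOTII cells (log2 fold change -2.0 ± 0.28, adjusted p = 0.000495). Usp18 was at 315, 240 and 336 CPM against 154, 147 and 148 CPM (-0.99 ± 0.14, adjusted p = 0.000552). The Cbl-b-/-W131AOTII libraries differed little among themselves and lay under all W131AOTII libraries. Ifitm3, a membrane protein that blocks viral entry, had a larger fold at a low level, from 17, 15.1 and 21.5 CPM to 1.9, 1.49 and 1.98 CPM (-3.31 ± 0.31, adjusted p = 4.91e-06). Bst2 (tetherin) fell by 1.08, a call that was lost without WO3, CWO1 or CWO3 (adjusted p from 0.0589 to 0.109). The chemokine gene Cxcl10, a ligand of CXCR3, went from 6.21, 2.86 and 2.99 CPM to 0.498, 0.822 and 0.973 CPM (-2.40 ± 0.39, adjusted p = 0.00202).

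Further stable members act in the nucleus or in nucleic acid metabolism. Pml, the organizer of nuclear bodies, was at 316, 288 and 332 CPM against 148, 130 and 150 CPM (log2 fold change -1.13 ± 0.13, adjusted p = 4.48e-05). Daxx, a partner of PML, was at 279, 245 and 259 CPM against 130.8, 132 and 139 CPM (-0.96 ± 0.12, adjusted p = 0.000153). For both the groups were separate and narrow. Slfn5, Isg20, Adar and Mx2 were stable as well, at -1.49, -1.30, -0.74 and -1.63. Mx1 fell by 1.54 and lost its call only without CWO1 (adjusted p = 0.0502).

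Among the regulators of the pathway, Irf7 fell and Irf9 did not pass. Irf7, the amplifier of the type I interferon response, was at 653, 443 and 617 CPM in W131AOTII cells and at 208, 204 and 272 CPM in Cbl-b-/-W131AOTII cells. The highest value without Cbl-b was under the lowest with it, and the log2 fold change was -1.33 ± 0.19 (adjusted p = 0.000473). Irf9 was at 410, 366 and 428 CPM against 326, 318 and 304 CPM without overlap, but did not pass (-0.34 ± 0.11, adjusted p = 0.0531). Ifnar1, a receptor chain, was at 0.13 ± 0.12 (adjusted p = 0.518). In a list of 31 measured IRF, STAT and signalling genes 10 fell and 1 rose, against 6.08% and 3.18% of all genes. The median was -0.32. With the GC and length offsets 5 fell and 1 rose, with a median of -0.15. Of the list, Irf7 and the adaptor Myd88 (-0.57 ± 0.11, adjusted p = 0.00687) were stable. The lower count of this list was 9 without WO1, 4 without WO2, WO3 or CWO3, 2 without CWO1 and 3 without CWO2.

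**Figure D2:**
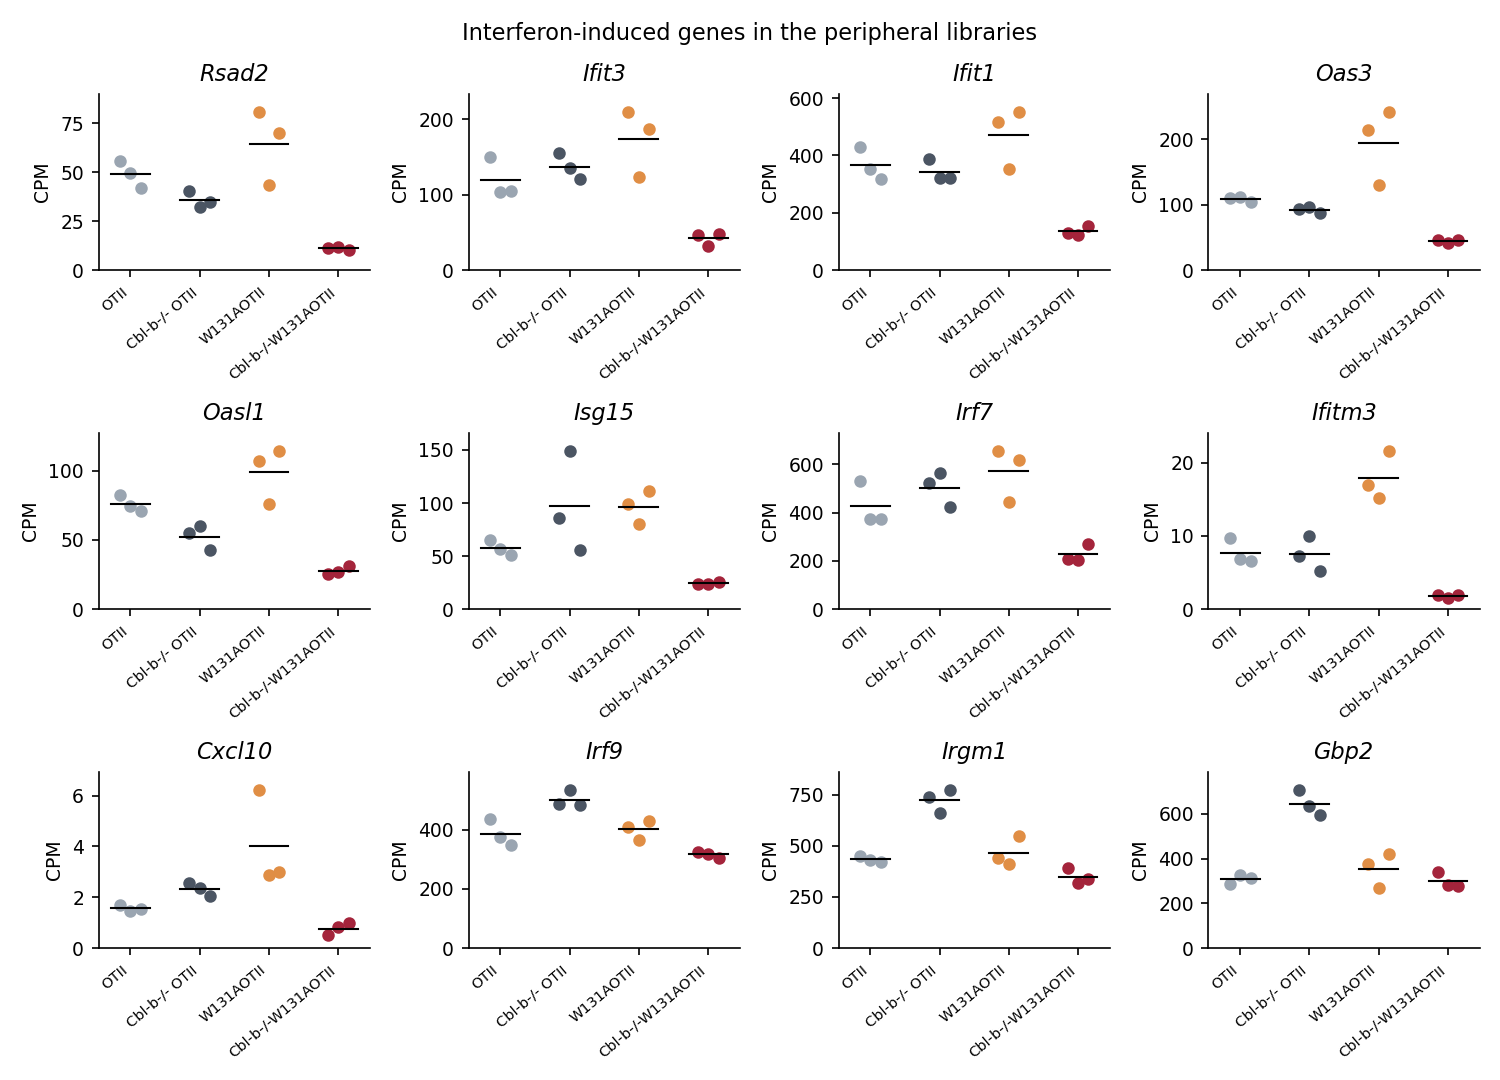
CPM (vertical axes, from 0) of 12 interferon-related genes in the 12 peripheral libraries; each point is 1 library and each bar the mean of 3. For the genes from Rsad2 to Cxcl10 the Cbl-b-/-W131AOTII libraries are the lowest, while Irgm1 and Gbp2 are highest in Cbl-b-/- OTII libraries.

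Levels in the other peripheral groups are given as a description. Rsad2 was at 55.8, 49.4 and 42.1 CPM in OTII cells and at 40.3, 32.2 and 35 CPM in Cbl-b-/- OTII cells. All 6 of these values lay above the Cbl-b-/-W131AOTII libraries and under WO1 and WO3. Summed over the list, W131AOTII libraries held 24093 to 29756 CPM, Cbl-b-/-W131AOTII libraries 19831 to 19848 CPM, OTII libraries 22335 to 23809 CPM and Cbl-b-/- OTII libraries 26942 to 30793 CPM. Differences in level between these groups were not tested.

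In cells without W131A, the loss of Cbl-b gave a different picture for the same list. There, 18 members rose and 2 fell, against 5.22% and 2.99% of all genes, with a median log2 fold change of 0.21. Of the 44 genes that fell in W131AOTII cells, 5 rose and 2 fell in OTII cells. The difference between both Cbl-b effects was tested for every gene as an interaction. It passed for 96 genes (0.631%), 6 with the higher effect in W131AOTII cells (0.0395%) and 90 with the lower (0.592%), and 29 of the 96 were on the interferon list. For Oasl2 the effect was -1.64 in W131AOTII cells and 0.61 in OTII cells, a difference of -2.25 on the log2 scale (adjusted p = 0.0002036). For Ifit3 the 2 effects were -2.04 and 0.20 (difference -2.24, adjusted p = 0.0002932), and for Rsad2 they were -2.53 and -0.46 (difference -2.07, adjusted p = 0.0007382). Of the 44 genes, 24 passed this test. The total of 96 was 56 without OTII replicate 2, 49 without OTII replicate 3 and 169 without Cbl-b-/- OTII replicate 3.

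**Figure D3:**
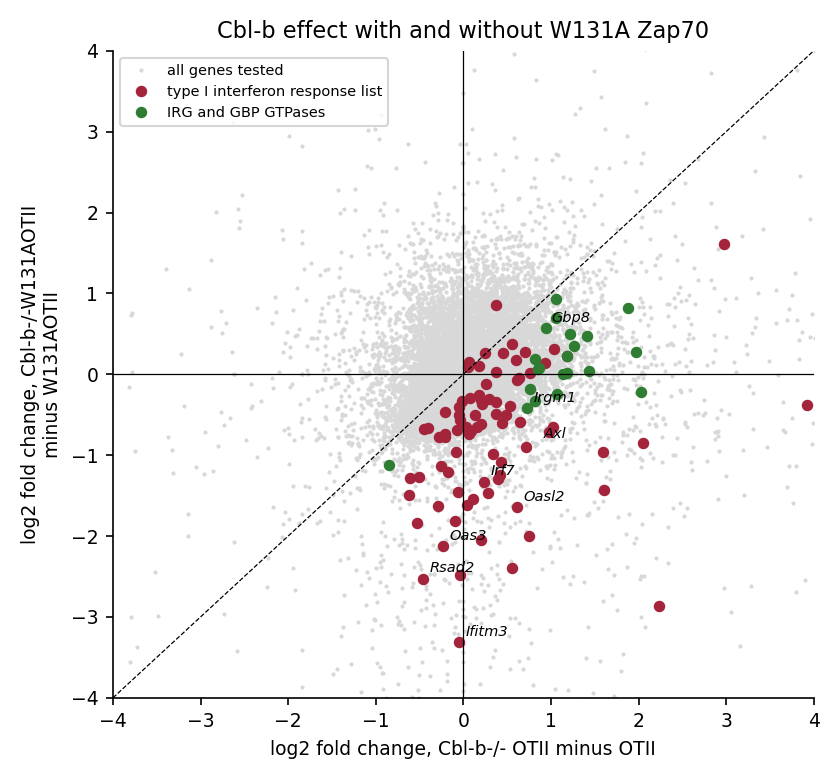
Log2 fold change upon Cbl-b loss in W131AOTII cells (vertical axis) against that in OTII cells (horizontal axis), 1 point per gene, both axes shown from -4 to 4; the dashed line marks equal effects. Interferon-list genes (red) lie mostly below 0 on the vertical axis, and IRG and GBP genes (green) lie mostly right of 0 and under the dashed line.

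IRG and GBP GTPases, which attack the vacuoles of intracellular pathogens, had few calls in W131AOTII cells. Of 21 measured members 3 rose and 1 fell, against 3.18% and 6.08% of all genes, with a median of 0.07. Gbp4 rose by 0.70, Iigp1 by 0.82 and Gbp8 by 0.57, and Irgm1 fell by 0.42. None of these 4 calls was stable. With the GC and length offsets 1 rose and 2 fell, and with the offsets and without WO2 0 rose and 3 fell. The higher count was 3 without WO1, 0 without WO2, 1 without WO3, and 0 without CWO1, CWO2 or CWO3. The Irgm1 call was lost without each library but WO1 (adjusted p from 0.0611 to 0.23). In OTII cells 18 of the 21 rose upon Cbl-b loss, against 5.22% of all genes, with a median of 1.07. The interaction test was passed by 9 of the 21, against 0.631% of all genes. Gbp2 was at 374, 267 and 422 CPM in W131AOTII cells and at 340, 280 and 279 CPM in Cbl-b-/-W131AOTII cells, which overlap (-0.24 ± 0.14, adjusted p = 0.281), and at 286, 325 and 313 CPM in OTII cells against 705, 636 and 597 CPM in Cbl-b-/- OTII cells (1.07). The response element was found in the promoters of 11 of the 12 IRG and GBP members with an entry (91.7%). It was found in 14 of the 33 interferon-list genes that fell (42.4%) and in 3.32% of genes tested. The GAS motif TTCNNNGAA, which reads the same on both strands, was held by 7 of the 12 (58.3%), by 4 of the 33 interferon-list genes that fell (12.1%) and by 7.2% of genes tested. Irgm1, at chr11:48871421-48871570 (minus strand), and Gbp2, at chr3:142620513-142620662 (plus strand), are printed for comparison with the promoters above, with matches to GAAANNGAAA on either strand in capitals.
Irgm1: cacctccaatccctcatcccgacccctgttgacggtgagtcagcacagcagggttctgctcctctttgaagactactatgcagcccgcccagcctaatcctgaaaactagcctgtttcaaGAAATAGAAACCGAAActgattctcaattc
Gbp2: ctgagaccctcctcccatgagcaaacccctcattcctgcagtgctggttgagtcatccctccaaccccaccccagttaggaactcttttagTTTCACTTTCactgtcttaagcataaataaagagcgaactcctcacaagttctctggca

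MHC class I genes, another interferon-induced group, passed in 2 of 25 measured members, both lower, a share near the 6.08% of all genes that fell. With the GC and length offsets 2 members were higher and 1 lower. H2-T24, a nonclassical class I gene, was at 137, 102 and 149 CPM against 65.4, 62.7 and 60.5 CPM (log2 fold change -1.04 ± 0.14, adjusted p = 0.000423) and was stable. Its effect in OTII cells was 0.22, and the difference of -1.26 passed the interaction test (adjusted p = 0.003415). The other, Tapbp, which encodes tapasin, fell by 0.44 and lost its call when any library but WO1 was left out. The median of the list was -0.12.

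Of 33 measured NF-kB subunits, regulators and targets 4 fell and 1 rose, against 6.08% and 3.18% of all genes. The 2 stable ones encode Bcl3, a nuclear IkB protein that partners p50 and p52, and Rela, the p65 subunit. Bcl3 was at 165, 191 and 268 CPM in W131AOTII cells and at 77.8, 84.2 and 92.5 CPM in Cbl-b-/-W131AOTII cells (log2 fold change -1.29 ± 0.18, adjusted p = 0.000382). Rela was at 348, 428 and 428 CPM against 199, 248 and 245 CPM (-0.80 ± 0.14, adjusted p = 0.00415). Neither gene had overlapping groups, and Rela also fell in OTII cells, by 0.50 (adjusted p = 0.0344). Relb fell by 0.70 and lost its call without CWO1 (adjusted p = 0.0598), a fit with 2 lower members on the list. Nfkb1 was at -0.29 ± 0.16 (adjusted p = 0.236).

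Dtx1, which encodes Deltex1, a ubiquitin ligase and Notch target linked to T cell anergy, was lower without Cbl-b whether or not W131A was present. In W131AOTII cells it was at 515, 641 and 725 CPM against 192, 279 and 248 CPM in Cbl-b-/-W131AOTII cells (log2 fold change -1.39 ± 0.22, adjusted p = 0.00139). In OTII cells it was at 421, 579 and 614 CPM against 159, 171 and 145 CPM in Cbl-b-/- OTII cells (-1.76). The groups were separate in both pairs, the call was stable, and the interaction was 0.37 (adjusted p = 0.64). Of 27 measured Notch pathway genes 7 fell and 1 rose, against 6.08% and 3.18% of all genes, with a median of -0.42. Only Dtx1 was stable. The lower count was 5, 2 and 1 when WO1, WO2 or WO3 was left out, and 1, 2 and 4 when CWO1, CWO2 or CWO3 was. Notch1 itself fell by 0.79, a call lost without WO3, CWO1 or CWO2 (adjusted p from 0.0615 to 0.0989).

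Genes by which anergic and regulatory T cells are recognized passed in small numbers. Among 28 measured anergy-associated genes 4 fell, against 6.08% of all genes, and the median was -0.18. Dtx1 was the only stable one. The lower count was 2 without WO3 and 1 without WO2, CWO1, CWO2 or CWO3. Nr4a1, an early target of receptor signals, was at 69.3, 69 and 49.9 CPM against 47, 51.7 and 51.4 CPM with overlap (-0.33 ± 0.15, adjusted p = 0.177). Nt5e (CD73) was at 0.22 ± 0.28 (adjusted p = 0.65) and Izumo1r (FR4) at -0.24 ± 0.24 (adjusted p = 0.567), both surface markers of anergic CD4 cells. Foxp3, which specifies regulatory T cells, was at 138, 161 and 148 CPM against 125, 125 and 114 CPM without overlap (-0.29 ± 0.19, adjusted p = 0.339), and its OTII libraries were at 28.5, 31.1 and 34.3 CPM. Of 25 regulatory T cell markers 13 rose in OTII cells (5.22% of all genes), and 3 in W131AOTII cells (3.18% of all genes), none of the 3 stable. Ikzf2 (Helios) rose by 1.63 and lost its call without WO2, WO3 or CWO1 (adjusted p from 0.0648 to 0.0957), fits with 1, 0 and 0 higher members on the list. Of 40 effector and memory helper genes 17 rose in OTII cells, where 5.22% of all genes did. In W131AOTII cells 3 rose and 1 fell, against 3.18% and 6.08% of all genes. The higher count there was 0 without WO2, WO3, CWO1 or CWO3 and 1 without CWO2, and the lower count 3 without WO1. For Cxcr3, a receptor of helper type 1 cells, the effect was -0.49 ± 0.27 in W131AOTII cells (adjusted p = 0.237) and 3.03 in OTII cells, and the difference of -3.53 passed the interaction test (adjusted p = 0.0002036).

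Genes of receptor signalling that passed were mostly lower, as were the calls over all genes (924 lower and 483 higher). Of 36 measured negative regulators 7 fell and 0 rose, against 6.08% and 3.18% of all genes. With the GC and length offsets 2 of them fell. Among the 7 were the phosphatase genes Ptpn6 (SHP-1, by 0.63) and Inpp5d (SHIP-1, by 0.70) and the kinase gene Csk (by 0.63). Of 40 proximal signalling genes 4 fell and 1 rose, near the 6.08% and 3.18% of all genes, and 2 fell and 0 rose with the GC and length offsets. None of these was stable. The count of lower negative regulators was 1 without WO2, 2 without WO3, 0 without CWO1 and 3 without CWO2, and that of proximal genes 1 without WO2, 0 without WO3 or CWO1, and 2 without CWO2 or CWO3. Ptpn6, Inpp5d and Csk each lost the call without WO2 (adjusted p from 0.0624 to 0.0869) and without CWO1 (adjusted p from 0.0716 to 0.103). In the PI3K and AKT list 3 of 39 fell, also near the share of all genes, with 1 left without WO2 or CWO1, and the stable one was Akt2, a kinase of the insulin and CD28 pathways, at 143, 150 and 184 CPM against 96.3, 100 and 100 CPM (log2 fold change -0.69 ± 0.13, adjusted p = 0.00687).

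Follicular helper and homing genes included 3 stable lower genes. Il21r, the receptor of the helper cytokine IL-21, was at 1228, 1243 and 1689 CPM in W131AOTII cells and at 742, 853 and 799 CPM in Cbl-b-/-W131AOTII cells (log2 fold change -0.80 ± 0.12, adjusted p = 0.00135). Bcl6, the transcription factor that specifies follicular helper cells, was at 34.4, 37.4 and 39.5 CPM against 16.4, 21.3 and 20.5 CPM (-0.94 ± 0.17, adjusted p = 0.00513). Ccr4, a chemokine receptor of skin-homing and helper type 2 cells, was at 9.38, 8.81 and 8.09 CPM against 3.54, 4.59 and 4.03 CPM (-1.11 ± 0.20, adjusted p = 0.00543). The groups were separate for all 3 genes. Over the lists, 6 of 19 follicular helper genes fell and 1 rose, and 10 of 32 chemokine receptor, integrin and homing genes fell and 3 rose. Of all genes 6.08% fell and 3.18% rose. The lower homing count was 4 without WO2 or WO3, and 1, 6 and 5 when CWO1, CWO2 or CWO3 was left out. The lower follicular helper count was 3 without WO2 or CWO3, 4 without WO3 and 2 without CWO1. Cxcr5, the B cell zone receptor, was at 30.7, 67.9 and 28.8 CPM against 14, 23.9 and 19.7 CPM (-1.15), and WO2, which held more B cell transcripts, was its highest library. Without WO2 it was at -0.65 (adjusted p = 0.177), and its call was also lost without CWO1 (adjusted p = 0.129) or CWO3 (adjusted p = 0.0597).

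**Figure D4:**
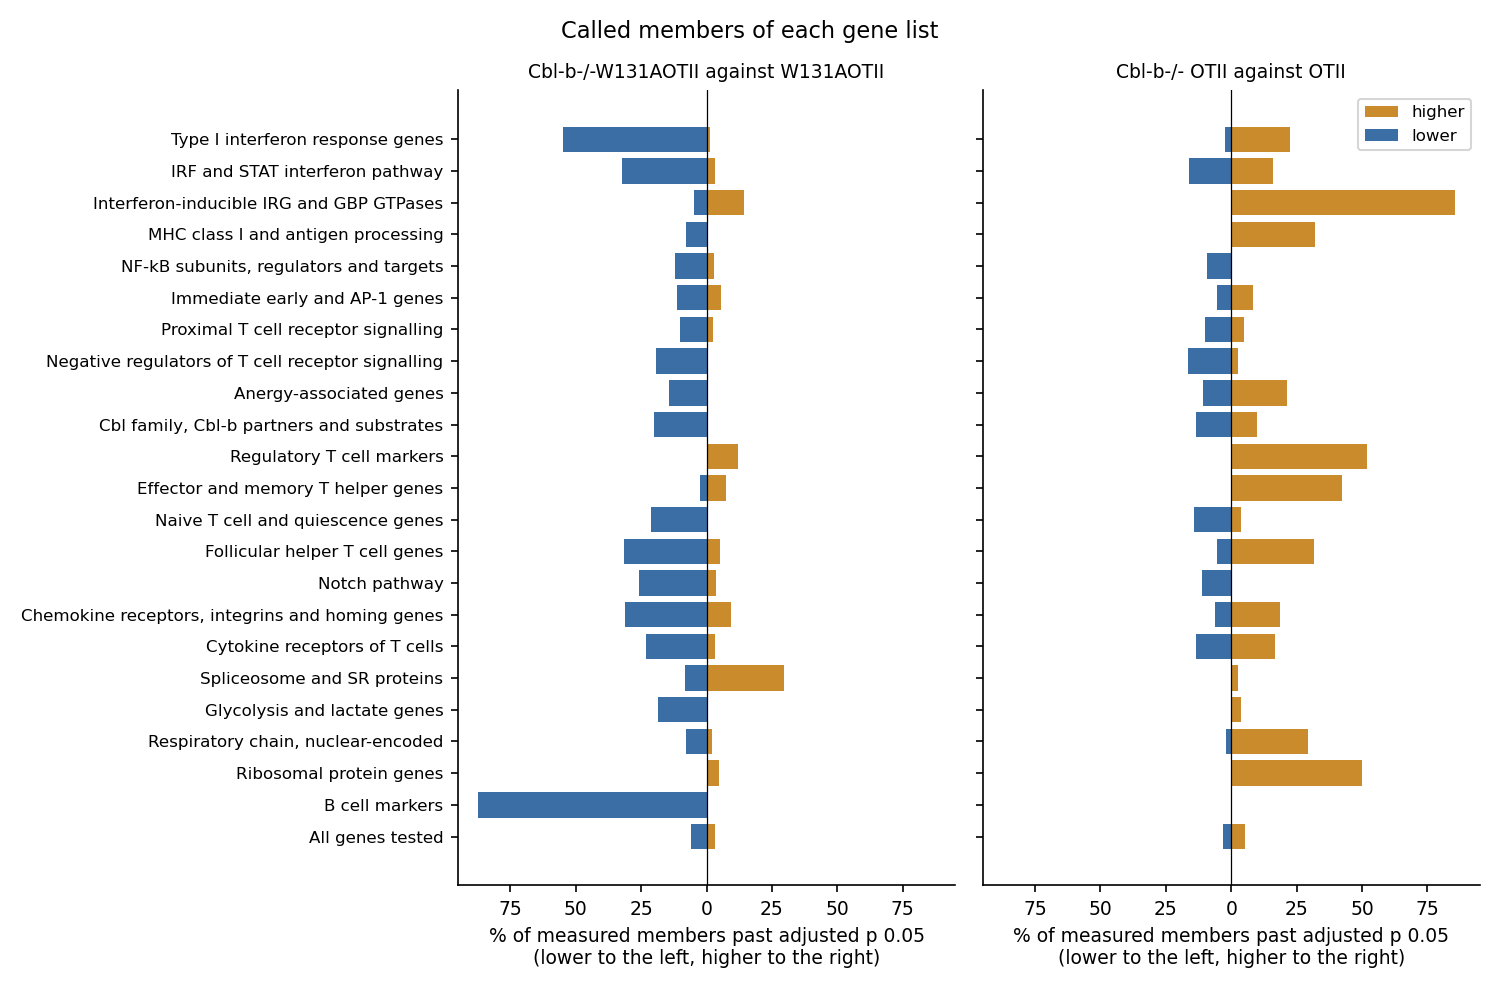
Share of the measured members of each gene list that passed the adjusted p of 0.05, lower to the left (blue) and higher to the right (orange), in W131AOTII cells (left panel) and in OTII cells (right panel), with all genes tested in the last row. Of the lists drawn, the interferon list and the B cell markers extend farthest to the left in the left panel, and the IRG and GBP genes farthest to the right in the right panel.

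Stable genes that rose formed no single list. Hmgb1, a chromatin protein and alarmin, had the smallest adjusted p, at 19.3, 16.6 and 16.1 CPM in W131AOTII cells and 44.5, 44.3 and 39.5 CPM in Cbl-b-/-W131AOTII cells (log2 fold change 1.30 ± 0.14, adjusted p = 3.07e-05). Rab4a, a GTPase of fast endosomal recycling, was at 3.97, 3.99 and 2.87 CPM against 20, 21.4 and 22.2 CPM (2.55 ± 0.40, adjusted p = 0.00133). Ftl1, the ferritin light chain, was at 5.27, 6.72 and 5.64 CPM against 22.1, 14.8 and 19.5 CPM (1.68 ± 0.26, adjusted p = 0.00139). The groups were separate for the 3 genes, and all were stable. Hmgb1 and Ftl1 have many processed pseudogene copies, and the sources used here do not say how reads matching several places were counted, so their levels are uncertain. The ferritin heavy chain gene Fth1 was at -0.17 ± 0.17 (adjusted p = 0.559). Rab4a also rose in OTII cells, by 1.66 (adjusted p = 0.0177), and for Hmgb1 the difference of 1.04 between both effects passed the interaction test (adjusted p = 0.01593).

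Rfwd3, a ubiquitin ligase of the DNA damage response, was at 12.7, 16.2 and 14.7 CPM in W131AOTII cells and at 33, 31.1 and 28.8 CPM in Cbl-b-/-W131AOTII cells (log2 fold change 1.09 ± 0.17, adjusted p = 0.00153). Its OTII libraries were at 33.3, 32.8 and 36.5 CPM, so the Cbl-b-/-W131AOTII values lay near those of OTII cells. Rfwd3 was 1 of the 6 genes with a higher effect in W131AOTII cells (difference 1.48, adjusted p = 0.003698). Fosb, a subunit of the AP-1 transcription factor, rose from 5, 1 and 3 counts to 46, 20 and 23 counts (3.35 ± 0.59, adjusted p = 0.00395), a large fold on few reads. Fos and Jun, the better-known AP-1 genes, were at 1.17 ± 0.48 (adjusted p = 0.121) and 1.30 ± 0.93 (adjusted p = 0.394). The heat shock gene Hspa1b, a marker of handling stress in sorted cells, was at 1.67, 1.125 and 19.5 CPM against 89.6, 59.7 and 130.3 CPM without overlap, but did not pass (3.66, adjusted p = 0.167), and its part in other values was not tested. Its near-identical neighbour Hspa1a makes that level uncertain. Casp1, the inflammatory caspase, was at 15.4, 7.62 and 7.71 CPM against 25.1, 26.4 and 24.2 CPM (1.30 ± 0.26, adjusted p = 0.00822), and rose in OTII cells by 1.34.

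Among 37 spliceosome and SR protein genes 11 rose and 3 fell, against 3.18% and 6.08% of all genes, with a median of 0.09. With the GC and length offsets 7 rose and 3 fell. Srsf7, an SR splicing factor, was at 164, 165 and 184 CPM against 299, 308 and 325 CPM (log2 fold change 0.86 ± 0.16, adjusted p = 0.0065), and Hnrnpm, a splicing repressor, at 683, 719 and 978 CPM against 449, 473 and 451 CPM (-0.79 ± 0.15, adjusted p = 0.00754). These 2 were stable and moved in opposite directions. The other calls of the list were not, and the higher count was 7, 2 and 4 when WO1, WO2 or WO3 was left out, and 1, 4 and 5 when CWO1, CWO2 or CWO3 was. Of 82 ribosomal protein genes 4 rose here. That count was 0 without WO2, WO3, CWO1 or CWO2 and 2 without CWO3. In OTII cells 41 of the 82 rose, where 5.22% of all genes did. Ribosomal protein reads were 0.637%, 0.726% and 0.637% of counts in OTII libraries and 1.063%, 1.788% and 0.767% in Cbl-b-/- OTII libraries. How reads matching several places were counted is not stated, so these levels are uncertain too, and its part in these counts was not tested.

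Glycolysis genes that passed were lower. Hk1, the hexokinase of resting cells, was at 419, 442 and 490 CPM in W131AOTII cells and at 234, 260 and 259 CPM in Cbl-b-/-W131AOTII cells (log2 fold change -0.84 ± 0.16, adjusted p = 0.00691) and was stable. In all 5 of 27 measured members fell, where 6.08% of all genes did, with Aldoa, Eno1, Gpi1 and Ldha at -0.63, -0.49, -0.49 and -0.52. The count was 1 without WO2, WO3 or CWO1, 3 without CWO2 and 2 without CWO3. Among 51 nuclear-encoded respiratory chain genes 4 fell and 1 rose, near the shares of all genes, and 15 rose in OTII cells, where 5.22% of all genes did. The lower count was 2 without WO2, CWO2 or CWO3, 1 without WO3 and 0 without CWO1.

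Lower genes outside these lists included Synj2, Sdc3, Slc9a5 and Tspan9, all stable. Synj2, a phosphoinositide phosphatase of membrane traffic, was at 45.9, 50.6 and 50.9 CPM against 11.2, 8.25 and 9.97 CPM (log2 fold change -2.32 ± 0.20, adjusted p = 1.9e-06), and fell in OTII cells by 0.95. Sdc3, a heparan sulfate proteoglycan, was at 69.9, 69.3 and 60.9 CPM against 21.9, 23.2 and 23.9 CPM (-1.54 ± 0.19, adjusted p = 9.23e-05). Slc9a5, a sodium-proton exchanger, was at 14.1, 14.4 and 6.81 CPM against 0.176, 0.373 and 0.591 CPM (-4.96 ± 0.72, adjusted p = 0.000693). Its OTII libraries lay between 0.0342 and 0.466 CPM, overlapping the Cbl-b-/-W131AOTII libraries. Tspan9, a tetraspanin, went the same way, from 64.5, 81.2 and 81.6 CPM to 18.5, 32.1 and 26.4 CPM (-1.56 ± 0.29, adjusted p = 0.00568), with OTII libraries at 8.91, 11 and 8.57 CPM.

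Transcripts of other cells differed between the libraries as well. Of 24 B cell markers 21 fell, where 6.08% of all genes did, with a median of -2.84. Cd79a was at 28.4, 154 and 17.4 CPM in W131AOTII cells and at 8.11, 8.48 and 9.87 CPM in Cbl-b-/-W131AOTII cells. Summed over the list, W131AOTII libraries held 2691 to 7216 CPM and Cbl-b-/-W131AOTII libraries 1773 to 1950 CPM, and no library was at 0 for Cd79a or Ms4a1. The count of lower B cell markers was 8 without WO2, 0 without CWO1, 14 without CWO2 and 13 without CWO3. Immunoglobulin segments fell in 45 of 61, and the count was 3, 2, 19 and 14 in the same fits. Myeloid markers fell in 6 of 20, with counts of 1, 0, 2 and 2, and dendritic cell markers in 5 of 10, with counts of 2, 0, 4 and 3. The dendritic sum was 306 to 376 CPM against 189 to 220 CPM. Bst2, which fell, is on both the dendritic and the interferon list. It had 6452, 3924 and 5103 counts in WO1 to WO3, against 2271, 2261 and 2066 in CWO1 to CWO3. The dendritic count and sum are therefore not separate from the interferon result, and the sum without Bst2 was not tested. The CD4 T cell markers summed to 22983 to 26101 CPM against 21168 to 22734 CPM. The part of these other cells in the results above was not tested, and the interferon list had 29 lower members when WO2 and CWO1 were both left out, a fit with 74 calls in all.

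**Figure D5:**
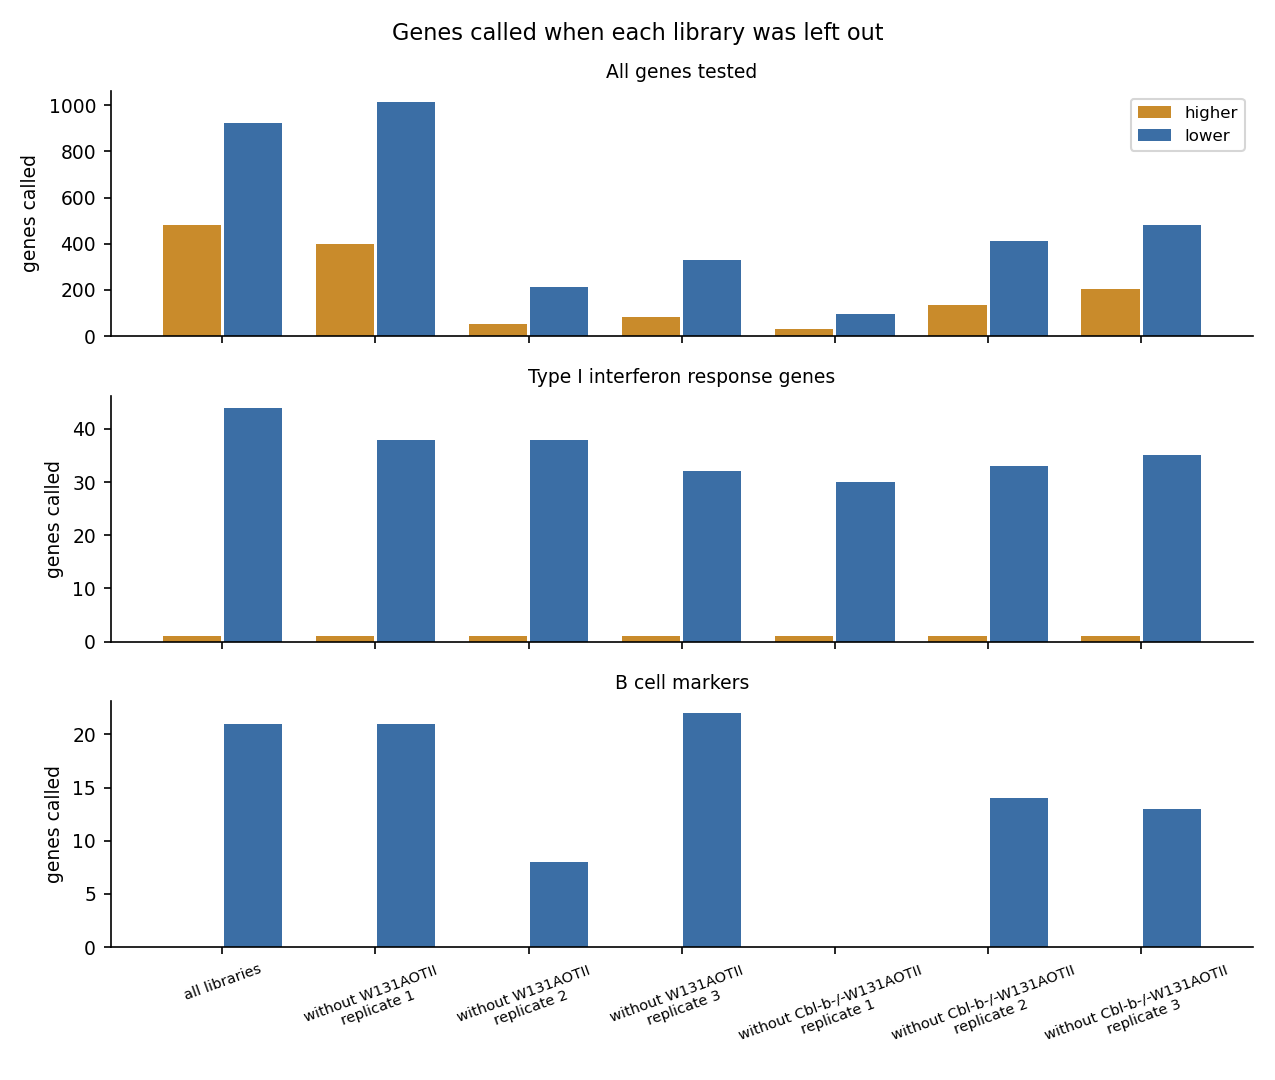
Genes called higher (orange) and lower (blue) with all libraries and with each of the 6 libraries left out, for all genes tested, the interferon list and the B cell markers (vertical axes count genes, from 0). The interferon list stays between 30 and 44 lower genes, while all calls drop from 1407 to 124 and B cell markers from 21 to 0 without Cbl-b-/-W131AOTII replicate 1.

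Both Cbl-b comparisons, which have no library in common, shared part of their calls. Of the genes that rose, 106 did so in W131AOTII and in OTII cells, 21.9% of those in W131AOTII cells and 13.4% of those in OTII cells. Of those that fell, 178 did so in both, 19.3% and 39.1%. Over all genes tested, 5.22% rose and 2.99% fell in OTII cells, and 3.18% rose and 6.08% fell in W131AOTII cells. There were 11 genes that fell in W131AOTII cells and rose in OTII cells, and 0 with the reverse. Across all genes tested, the fold changes of both comparisons had a Spearman correlation of 0.33, a description across genes that are not independent.

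Genes near Cblb on chromosome 16 (chr16:52031225-52208048, GRCm38) were among those shared. Within 10 Mb of the gene 70 others were tested, of which 5 rose and 2 fell (10%, against 9.24% of genes elsewhere). All 5 that rose also rose in OTII cells. Of 15133 genes elsewhere 478 rose and 921 fell, and 101 rose in both comparisons. In OTII cells 10 of the 70 rose and 0 fell (14.3%, against 8.18% elsewhere). Tbc1d23, a regulator of endosome-to-Golgi transport 5.14 Mb away, was at 16.5, 13.9 and 12.8 CPM against 39.1, 50.3 and 41.8 CPM (log2 fold change 1.60 ± 0.20, adjusted p = 9.48e-05), and at 1.33 in OTII cells. Cep97, a centriolar protein gene 3.87 Mb away, was at 62.3, 49.9 and 70 CPM against 117, 128 and 120 CPM (1.0 ± 0.14, adjusted p = 0.000395), and at 0.97 in OTII cells. Every Cbl-b-/- library, with or without W131A, exceeded every Cbl-b-sufficient peripheral library for both genes. The distance of these genes from Cblb is given as a position, and its part in their levels was not tested. The mitochondrial gene mt-Nd3 had 21, 20 and 19 counts in W131AOTII libraries and 0 in each Cbl-b-/-W131AOTII library. Summed over the 3 libraries of a group, it had 60 counts in W131AOTII, 45 in OTII and 0 in Cbl-b-/- OTII cells. The sums were 58 and 32 in the thymic OTII and W131AOTII groups. Whether these 0 counts reflect expression or the mapping of reads was not tested.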

How the data were processed

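RNA from sorted mouse CD4 T cells was read as single-end 50-base reads, per the labels. The values are raw read counts per Ensembl gene in 1 table, as deposited by the authors, and per the submitters' processing notes STAR 2.7.2, GRCm38 and DESeq2 were used. The sources used here do not name the counting step, strand, annotation or any filter. All 55536 identifiers matched GENCODE M21, and 0 columns lacked a sample.

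All 18 libraries entered 1 edgeR 4.0.16 fit (R 4.3.3, TMM factors, filterByExpr, robust quasi-likelihood, 12 residual degrees of freedom, 15204 genes), with Benjamini-Hochberg adjustment at 0.05 per contrast. The contrasts were Cbl-b-/-W131AOTII minus W131AOTII, the same Cbl-b effect in OTII cells, added for values side by side, and their interaction. SE values were derived from that fit, as the absolute log2 fold change divided by the square root of the F statistic. Scripts were tested on simulated counts. Totals per library ran from 19708218 to 36218772, and floors and bounds cover counting error only.

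The comparison, gene lists and tests were chosen with earlier results of these data known. Named genes were Cblb and Zap70, up to 15 genes per direction by adjusted p, changed at least 2-fold, without overlap and past the threshold with GC and length offsets and without W131AOTII replicate 2, and up to 6 called members per list (12 for interferon, 3 for other cells); segments, predicted genes and pseudogenes were only counted, except the genes singled out in the text. Slc9a5, Tspan9, mt-Nd3, Cxcr3 and further genes of known role were named after their values were seen. Alternatives were DESeq2 1.42.0, limma 3.58.1 voom, other scalings, filters, sample sets, offsets and leaving out each library. Promoters are RefSeq entries for GRCm38.p6.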

Additional observations from a re-analysis of the deposited data

Results flagged for a closer look

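The effect of Cbl-b loss in W131AOTII cells differed from that in OTII cells for 96 genes by edgeR's interaction test at an adjusted p of 0.05. A part of them, genes of the naming rule and others described in the report, is given here. Values are the log2 effect in W131AOTII cells minus that in OTII cells. Of the 29 on the interferon list, named genes were Ifit3b (-2.44), Oasl2 (-2.25), Cmpk2 (-1.66), Ifit3 (-2.24), Ifitm3 (-3.26), Rsad2 (-2.07), Isg15 (-2.75), Ifit1 (-1.71), Usp18 (-1.32), Dhx58 (-1.39), Xaf1 (-1.62), Oas3 (-1.89), Irf7 (-1.56), Isg20 (-1.69), Cxcl10 (-2.96), Oasl1 (-1.31), Daxx (-0.87), Lgals3bp (-1.04), Pml (-0.87) and Irf9 (-0.72). Irf9 did not pass in W131AOTII cells alone and rose by 0.38 in OTII cells. Of the 9 IRG and GBP genes and the MHC class I genes that passed, those named were Irgm1 (-1.15), Gbp2 (-1.31) and H2-T24 (-1.26).

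Named surface receptor and other genes with the lower effect in W131AOTII cells were Cxcr3 (-3.53), Tnfrsf4 (-1.55), Ccr4 (-1.31), Gadd45g (-2.06), Axl (-1.70), Synj2 (-1.37) and Ndufb10 (-1.81). Cxcr3 rose by 3.03 and Tnfrsf4 (OX40) by 1.97 in OTII cells, and neither passed in W131AOTII cells. Gadd45g was at 17, 22.2 and 23.1 CPM in W131AOTII cells and at 8.49, 9.86 and 9.07 CPM in Cbl-b-/-W131AOTII cells (adjusted p = 0.0117 by edgeR), against 4.34, 5.27 and 4.23 CPM in OTII cells and 9.4, 10.6 and 5.5 CPM in Cbl-b-/- OTII cells. Gadd45g and Ndufb10 lost their calls in W131AOTII cells without Cbl-b-/-W131AOTII replicate 1 (adjusted p = 0.0677 for each). Ndufb10, a complex I subunit, was at 160, 185 and 200 CPM against 74.4, 86.5 and 82.1 CPM, and its OTII libraries lay at 74.6, 83 and 78.4 CPM. Differences for named low genes were Il1rl1 (-7.03), Klrg1 (-6.61) and Mmp9 (-6.44). Klrg1 had 1, 20 and 5 counts in W131AOTII libraries and 36, 23 and 72 in Cbl-b-/-W131AOTII libraries, so its fitted difference rests on few reads. Of the 6 genes with the higher effect in W131AOTII cells, Rfwd3 (1.48) and Hmgb1 (1.04) are named.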

How the results depend on the processing

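The 1407 calls became 2243 with DESeq2 (833 higher), 2243 without a low-count filter, 2572 with only peripheral libraries, 3517 with limma voom, 3296 with only the groups compared, 586 with GC and length offsets without W131AOTII replicate 2, and 74 without both that library and Cbl-b-/-W131AOTII replicate 1. The 96 interaction calls became 234 with DESeq2, 832 without the filter and 694 with voom. The 290 called list members became 450 with voom, 153 with the offsets without W131AOTII replicate 2, and 43 without both libraries. Leaving out 1 library gave 124 to 1411 calls, 49 to 169 interaction calls and 54 to 293 list members, and these fits have fewer samples; causes of the other moves were not tested. Library size alone gave 960 higher and 531 lower in place of 483 and 924. The interferon list had 29 to 56 lower members over all alternatives. Values of named genes kept their direction under each alternative run, with 882 of 3680 losing and 18 gaining a call.

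Same-numbered libraries did not deviate together (correlations 0.06, 0.029 and -0.033), and the main fit did not pair them by number. With 3 libraries per group, these values cannot show whether a number marks a shared sort or preparation. With the number as a replicate block the counts were 1074, 87 and 243. Depth limits genes of few reads such as Fosb, Klrg1 and Ifng.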
